A study of Mus musculus with 3 samples.

Results

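The genes described here are antiviral genes that type I interferon switches on, a set of 40 mouse genes listed by name. They were matched by name to the 32285 features of the count tables. Of the 40, 38 were found, and Mx1 and Mx2 were not analysed here. Their RNA was counted in live CD45+ cells, which are white blood cells, sorted out of liver tumours. The tumours came from MYC-ON mice of the C57BL6 strain, 18 weeks old. MYC-ON mice carry a MYC gene that can be switched on. No source used here gives the promoter that drives it or how long it was on. The study has 3 groups with 1 single-cell library each: DU101, DU102 and control. All 3 groups share the strain, the age and the tumour model. The labels do not say what the agents DU101 and DU102 are, how much was given or for how long, or how many mice each library pools. The control data carry the name DMSO, a common solvent for drugs.

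Type I interferons are secreted by cells that sense foreign or misplaced nucleic acid. They bind a receptor made of Ifnar1 and Ifnar2, whose kinases phosphorylate Stat2. Stat2 enters the nucleus in a complex with Irf9 that binds a DNA element called the interferon-stimulated response element (ISRE) in the promoters of many genes. The products block viral entry, translation, replication and release, and some of them sense nucleic acid or restrain the signal itself. In liver, Kupffer cells (the resident macrophages) and plasmacytoid dendritic cells (pDC) are well-known players in this response. Interferon-gamma, made by T and NK cells, switches on an overlapping set of genes through a related element, the gamma-activated site (GAS).

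For each gene, the molecules of RNA counted (UMIs, unique molecular identifiers) were summed over all cells of a lineage in a library and scaled to 1000000 UMIs of that sum (counts per 1000000, CPM). Lineages were gated cell by cell on fixed marker genes, so every name below means a likeness, as in macrophage-like cells. Ratios between libraries were taken in 10 lineages, those that had 200 cells or more in each library. A gene was counted as measured in a lineage when it had at least 30 UMIs over the 2 libraries compared. It was called higher or lower by size when its CPM differed by at least 1.5-fold and the exact Poisson 95% interval of the ratio lay on that side of 1. Values in brackets are such intervals. They cover counting error only. Since each group has 1 library, the differences have no replicate check and no test.

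The libraries held 15686 barcodes in DU101, 13650 in DU102 and 12639 in control, of which 13799, 11461 and 10154 cells were kept. Median depth was 4832 UMIs per kept cell in DU101, 5091 in DU102 and 6336 in control, and pairs of libraries shared at most 0.418% of their barcodes. The libraries also differed in sex-linked RNA. Xist, a marker of female cells, was found in 0.138% of DU101 cells, 0.0698% of DU102 cells and 56.0% of control cells, and RNA of Y-linked genes in 46.8%, 52.5% and 21.0% of them in the same order. The control library therefore mixed cells of both sexes, which the treated libraries did not. Sex, animal and treatment cannot be told apart in the comparisons with control, so these are also given below against control cells of either sex mark. The comparison of DU101 with DU102 does not involve the control library. With 1 library each, animal, library and treatment cannot be told apart in that comparison either. Of the markers fixed for the 10 lineages compared, all were found in at least 10% of the cells of their lineage, except 1 of 8 in Kupffer-like cells. The Kupffer-like gate rested mostly on Cd5l, found in 94.6% of its cells, and Slc40a1, found in 89.8%. Vsig4 was found in 22.7%, Folr2 in 15.9%, Clec4f in 13.4%, Marco in 12.8%, Timd4 in 10.4% and Cdh5 in 8.37%. The 10 leading genes by fold held 5 of the lineage's own markers in Kupffer-like and B-like cells, 2 or 3 in 6 other lineages, 1 beside 1 of another lineage in CD4 T-like cells, and 0 of 10 in macrophage-like cells. The gate left 2477 of the DU101, 1720 of the DU102 and 1707 of the control cells without a lineage, and 775, 804 and 442 cells lay near its limit. Over all kept cells, the summed level of the 38 genes was 3526.8 CPM in DU101, 2155.3 CPM in DU102 and 2620.3 CPM in control.

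The DNA letters around the start of these genes were read first, because they show what many, but not all, of the genes share beyond their names. RefSeq promoter windows on GRCm38.p6, running from 250 bases before the start to 50 after it, were at hand for 30 of the 38 genes. No window was used for Oas2, Usp18, Ifi27l2a, Rtp4, Zbp1, Ifi204, Parp14 and Dhx58. The core letters of an ISRE, taken here as GAAA, any 2 letters and GAAA again on either strand, were present in the window of 18 of the 30 genes, against 1079 of 27025 genes in all (3.99%). The letters of a GAS, TTCNNNGAA on either strand, were present in 6 of the 30, against 9.55% of all genes. Of the 3 genes with both motifs, Oas1a, Bst2 and Eif2ak2, a GAS and an ISRE match shared letters in Bst2 only. No ISRE match was found in the windows of Ifit2, Ifi44, Oasl1, Oasl2, Cmpk2, Xaf1, Isg20, Ifi35, Ifi47, Herc6, Epsti1 and Samd9l. The sites below belong to genes that recur in the results that follow, as do genes without a match such as Ifit2, Cmpk2 and Xaf1. The capitals mark the letters searched for, written along the gene's own strand, so that a match on the other strand reads TTTC, any 2 letters and TTTC again.
Isg15, chr4:156200871-156200900, minus strand: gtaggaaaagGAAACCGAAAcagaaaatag
Bst2, chr8:71537577-71537606, minus strand: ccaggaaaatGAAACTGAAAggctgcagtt
Rsad2, chr12:26456553-26456582, minus strand: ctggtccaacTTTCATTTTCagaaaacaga
Ifit1, chr19:34640794-34640823, plus strand: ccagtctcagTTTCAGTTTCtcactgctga
Ifit3, chr19:34583397-34583426, plus strand: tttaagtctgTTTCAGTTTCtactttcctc
Ifit3b, chr19:34607793-34607822, plus strand: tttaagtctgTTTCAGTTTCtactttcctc
Ifi203, chr1:173942508-173942537, minus strand: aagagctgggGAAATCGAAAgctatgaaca
Ifi208, chr1:173673597-173673626, plus strand: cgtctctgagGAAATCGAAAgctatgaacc
Ifi214, chr1:173536017-173536046, minus strand: agtctctgagGAAATCGAAAgcgatgcact
Ifih1, chr2:62646206-62646233, minus strand: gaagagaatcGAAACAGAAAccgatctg
The Ifit3 and Ifit3b sites were identical over all 30 bases shown, and Ifi203, Ifi208 and Ifi214 held the same 10 letters, GAAATCGAAA. The Isg15 window held 3 overlapping matches, whose centres lay 61, 67 and 73 bases before the start. The match in Ifih1 lay 37 bases after its start. A match of letters is a description and is not a bound site.

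In control cells, each gene had its own pattern over the lineages. Macrophage-like cells held the highest level of 9 of the 38 genes among the 10 lineages, CD4 T-like cells of 8, neutrophil-like cells of 7 and pDC-like cells of 5. Kupffer-like cells led for 4 genes, CD8 T-like cells for 2, and B-like, classical monocyte-like and patrolling monocyte-like cells for 1 each. For 16 of the 38 genes the interval of the leading lineage was clear of that of the next, and for the other 22 it overlapped. These levels pool control cells of both sex marks, whose numbers differed by lineage. Cells with Xist only and with Y-linked RNA only numbered 90 and 339 among neutrophil-like cells, and 304 and 30 among pDC-like cells. The genes differed between such cells, as given below, and the order of lineages was not read in either kind alone.

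Bst2, or tetherin, which holds budding virus at the cell surface, was at 3486 CPM in control pDC-like cells, against 292 CPM in Kupffer-like cells, the next, and 29.5 CPM in neutrophil-like cells, the lowest. Bst2 is a known surface marker of mouse pDC, and it made up 58.8% of the UMIs of all 38 genes there. The pDC-like cells also led for Stat2, which carries the interferon signal to the nucleus, at 102 CPM against 39.7 CPM in macrophage-like cells. Usp18, which removes Isg15 from proteins and damps the interferon receptor, was at 42.8 CPM in pDC-like cells and 20.9 CPM in CD8 T-like cells. These 3 genes were therefore highest in control in the lineage best known for making interferon, and for each of them the interval was clear of the next. Other genes went the opposite way. The pDC-like cells were lowest, or level with the lowest, for Ifit1bl1, Ifit3b, Oas1a, Oas1g, Oas2, Oas3, Rtp4, Zbp1, Ddx58 and Ifi214. Ddx58 was at 1.42 CPM there, Oas3 at 3.19 CPM and Zbp1 at 11.7 CPM.

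Neutrophil-like and macrophage-like cells carried much of the effector set. Isg15, a ubiquitin-like protein that is attached to other proteins, was at 273 CPM in neutrophil-like cells, 207 CPM in macrophage-like cells and 17.3 CPM in B-like cells. Rsad2, or viperin, which makes a nucleotide that stops viral polymerases, was at 191 CPM in neutrophil-like and 71.9 CPM in macrophage-like cells, against 1.73 CPM in B-like cells. Oas3, an oligoadenylate synthetase that activates RNase L on meeting double-stranded RNA, was at 68.2 CPM in neutrophil-like cells and 40.0 CPM in classical monocyte-like cells. Ifih1, a cytosolic sensor of long double-stranded RNA also called MDA5, was at 55.2 CPM in macrophage-like cells and 3.90 CPM in B-like cells. In each of these genes the leading lineage stood clear of the next when all control cells were pooled.

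The HIN-200 genes, some of whose products bind DNA, differed in the lineages that carried them most. Ifi204 was at 238 CPM in patrolling monocyte-like cells, 228 CPM in macrophage-like cells and 4.66 CPM in CD8 T-like cells. Ifi203 was at 432 CPM in CD4 T-like and 384 CPM in B-like cells, against 22.3 CPM in neutrophil-like cells and a median of 223 CPM over the 10 lineages. Ifi208 was at 35.0 CPM in CD4 T-like and 30.7 CPM in CD8 T-like cells, and none of the other 8 of the 10 lineages passed 4.04 CPM. Ifi214 was at 38.7 CPM in CD8 T-like and 38.5 CPM in B-like cells. In control cDC2-like cells, which are myeloid dendritic cells, Ifi203 was the second-highest of the 38 genes, at 12.5% of their summed UMIs. Of the HIN-200 genes, Ifi204 held that place in control classical and patrolling monocyte-like cells, at 5.48% and 6.8%. The other 3, whose promoters share the string GAAATCGAAA shown above, were highest in T-like cells, with B-like cells next or level for Ifi203 and Ifi214, and the promoter of Ifi204 was not read. Ifi208 shared 37.4% and Ifi214 34.7% of the 31-base words in their last 500 bases with the relatives Ifi213 and Ifi209, so their counts are uncertain.

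Among the remaining genes, Ifi27l2a, a small mitochondrial protein strongly induced by interferon, was at 2054 CPM in classical monocyte-like, 1834 CPM in patrolling monocyte-like and 68.1 CPM in NK and ILC1-like cells. It made up between 17.7 and 52.3% of the genes' summed UMIs in the control lineages where it was the leading gene. Ifit1, which binds viral RNA that lacks a host cap, was at 69.9 CPM in CD4 T-like cells and 45.9 CPM in neutrophil-like cells. Isg20, an RNA exonuclease, was at 79.1 CPM in CD4 T-like cells and 3.69 CPM in Kupffer-like cells. The lowest summed level of the 15 lineages with enough cells was in hepatocyte or tumour-like cells, at 783.7 CPM in DU101, 585.5 CPM in DU102 and 436.0 CPM in control.

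**Figure D1:**
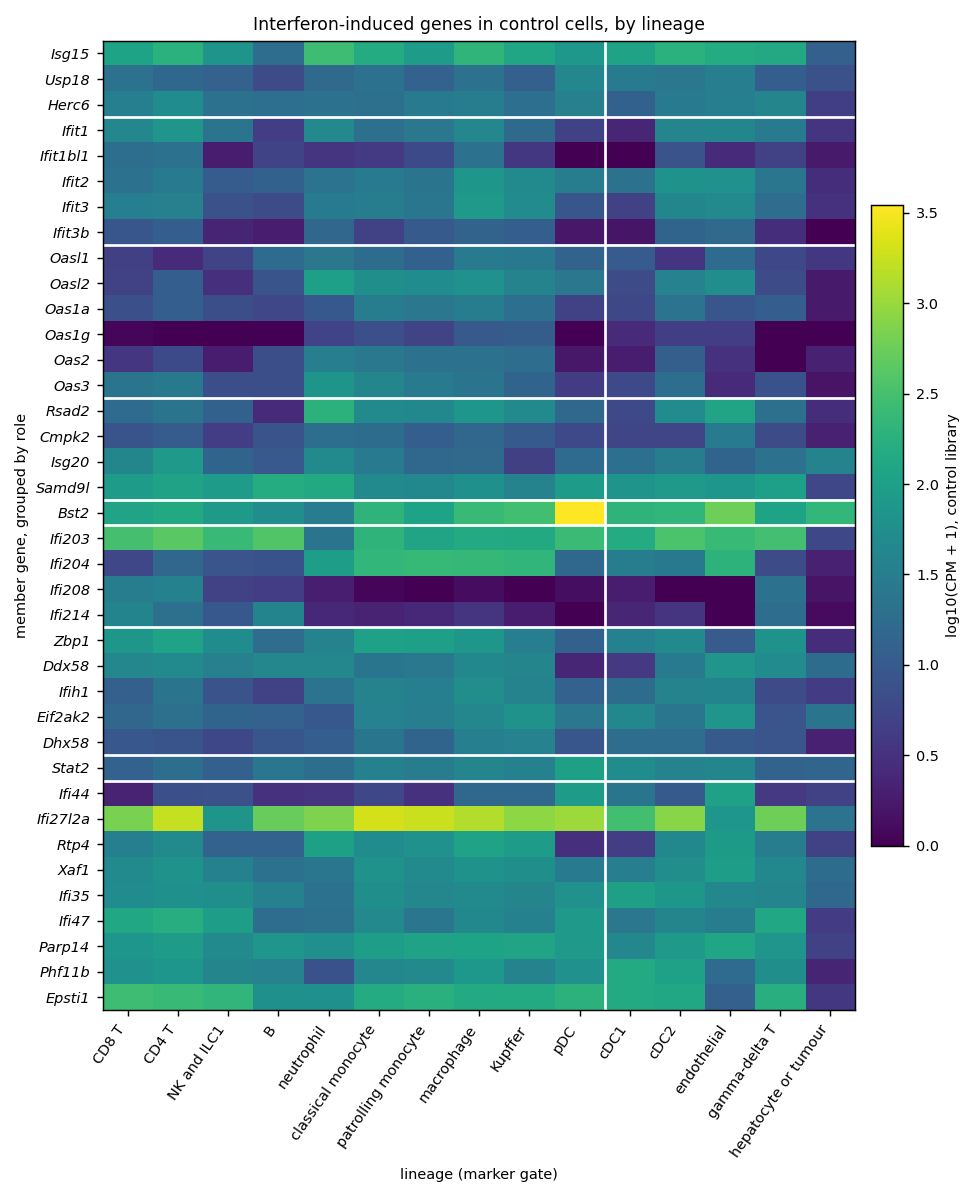
Heat map of the level of each of the 38 genes (rows, grouped by role) in each lineage (columns) of the control library, in CPM on a logarithmic colour scale. Bst2 stands out in pDC at 3486 CPM, and Ifi208 is above 5 CPM in CD4 T, CD8 T and gamma-delta T alone of the 15 lineages drawn.

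DU101 cells held more RNA of these genes than control cells in each of the 10 lineages by the summed level. Against Xist-only control cells, described below, the summed level was higher in DU101 in 9 of 10 lineages, classical monocyte-like cells being the exception, and the median ratio of the genes turned in classical monocyte-like and B-like cells. In B-like cells that median was below 0 under 5 of 16 alternative settings, at -0.02 within 1 cluster. Of 332 gene and lineage pairs measured, 137 (41.3%) were higher by size in DU101 than in control and 1 was lower. Over all genes, 4.71% of pairs were called higher and 6.3% lower. The share of higher calls in the set was thus well above the background of that comparison, and the share of lower calls below it. DU102 differed much less from all control cells pooled, with 31 of 332 pairs higher (9.34%) and 12 lower (3.61%), against 4.7% and 4.89% over all genes. That count hung on the control cells used. Against Y-only control cells, also described below, 88 of 306 pairs (28.8%) were higher in DU102 and 5 lower (6.14% and 4.77% over all genes). Against Xist-only control cells 21 of 321 (6.54%) were higher and 38 (11.8%) lower (5.86% and 5.61%). Set directly against DU102, DU101 had 127 of 333 pairs higher (38.1%) and 4 lower (1.2%), against 3.85% and 6.37% over all genes. DU101 over control and DU102 over control share the control library, and DU101 over DU102 shares both treated libraries with them. These counts hold only pairs with enough UMIs, and a pair can pass that filter through the library in which it is high.

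**Figure D2:**
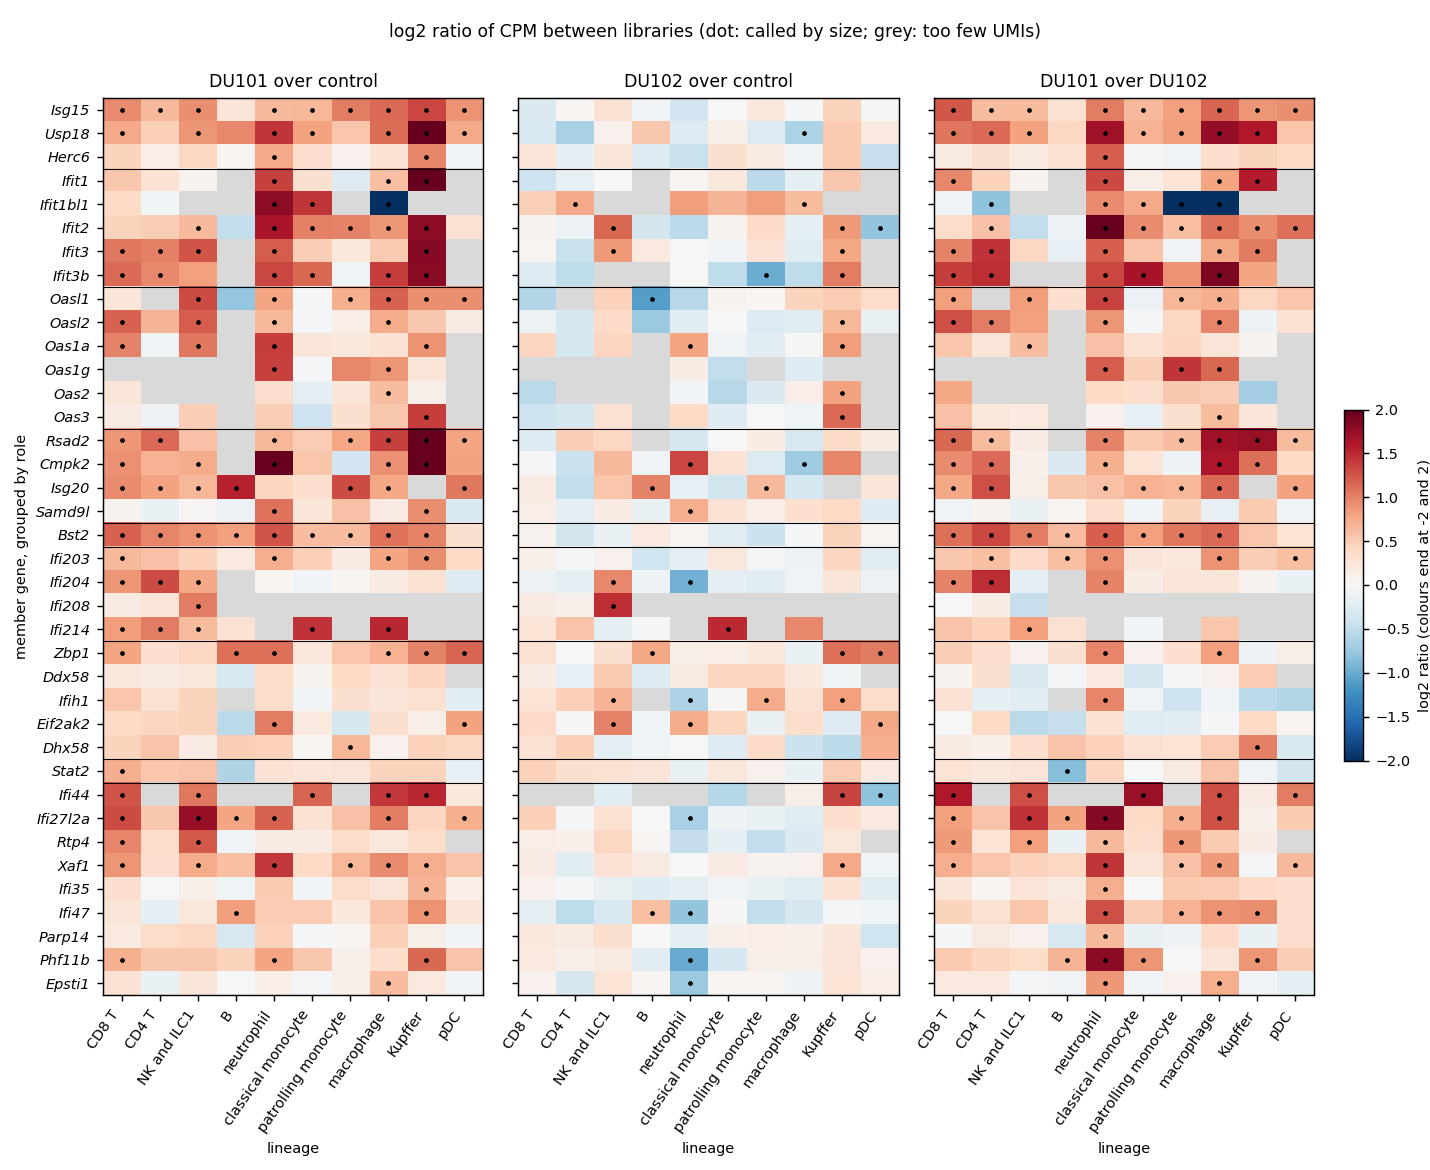
Heat maps of the log2 ratio of CPM for the 38 genes (rows, grouped by role) in 10 lineages (columns), for DU101 over control, DU102 over control and DU101 over DU102. A dot marks a pair called by size and grey marks too few UMIs, and the dots stand for 137 pairs higher and 1 lower in the left map, 31 and 12 in the middle map and 127 and 4 in the right map.

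The Isg15 system of the ubiquitin-like protein and its enzymes was higher in DU101 than control in 18 of 30 pairs, higher in DU102 in 0 and lower in 1, and higher in DU101 than DU102 in 18. Over all genes, 4.71% of pairs were higher in DU101 than control and 3.85% higher in DU101 than DU102. For DU102 over control, 4.7% of all pairs were higher and 4.89% lower. In macrophage-like cells Isg15 was at 454 CPM in DU101, 203 CPM in DU102 and 207 CPM in control. The DU102 and control values had overlapping intervals and DU101 lay above both, at 2.20-fold (2.05 to 2.36) control and 2.23-fold (2.06 to 2.43) DU102. Kupffer-like cells had 309 CPM in DU101, 167 CPM in DU102 and 123 CPM in control of Isg15, which was 2.51-fold (2.14 to 2.96) higher in DU101 than in control. Isg15 was higher by size in DU101 than control in 9 of 10 lineages, with a median log2 ratio of 0.92 over the 10, and the exception was B-like cells. In classical monocyte-like cells that direction did not hold against Xist-only control cells (log2 -0.22, described below). The same 9 lineages were called for DU101 over DU102. With all control cells pooled, the DU102 and control libraries did not differ by size for Isg15 in any of the 10 lineages, with a median log2 ratio of -0.006. In classical monocyte-like cells the control level of Isg15 itself differed between cells of either sex mark, as given below.

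Usp18 in neutrophil-like cells was at 42.1 CPM in DU101, 13.05 CPM in DU102 and 15.6 CPM in control. The DU101 level was 2.69-fold (2.01 to 3.64) that of control and 3.22-fold (2.52 to 4.14) that of DU102, whose intervals overlapped. In Kupffer-like cells Usp18 was at 48.4 CPM in DU101, 15.9 CPM in DU102 and 11.1 CPM in control, and DU101 was again the high library. Macrophage-like cells had 44.0 CPM in DU101, 13.03 CPM in DU102 and 20.3 CPM in control of Usp18. All 3 libraries were apart there, since DU101 was 2.17-fold (1.72 to 2.73) control while DU102 was 1.56-fold lower (1.12 to 2.21) than control. Herc6, the enzyme that attaches Isg15 in mice, was called for DU101 over control only in neutrophil-like cells, at 1.68-fold (1.28 to 2.23), and Kupffer-like cells, at 1.96-fold (1.25 to 3.09).

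The products of the 5 Ifit genes are built of tetratricopeptide repeats and bind viral RNA or translation factors. These genes were higher in DU101 than control in 22 of 39 pairs and lower in 1 (4.71% and 6.3% over all genes). For DU102 over control 7 of 40 pairs were higher and 2 lower (4.7% and 4.89% over all genes). For DU101 over DU102 23 of 40 were higher and 3 lower (3.85% and 6.37%). Ifit1 in Kupffer-like cells was at 67.4 CPM in DU101, 22.7 CPM in DU102 and 15.7 CPM in control. DU101 was the high library by 4.30-fold (2.84 to 6.63) over control, and the intervals of DU102 and control overlapped. Ifit3 in the same cells was at 175 CPM in DU101, 85.2 CPM in DU102 and 49.8 CPM in control, in steps that were each called, with DU102 1.71-fold (1.26 to 2.32) control and DU101 2.06-fold (1.57 to 2.72) DU102. Ifit3b, its near copy, was at 31.8 CPM in DU101, 8.60 CPM in DU102 and 12.2 CPM in control in macrophage-like cells, where Ifit3 was at 113 CPM in DU101, 66.2 CPM in DU102 and 78.4 CPM in control. DU101 was thus called over control for Ifit3b there and not for Ifit3, for which the ratio was 1.44 (1.27 to 1.64). Since 24.0% of the 31-base words at the end of Ifit3 also occur in Ifit3b, the split of reads between them is uncertain.

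Ifit2 showed how differently the lineages stood. In neutrophil-like cells it was at 65.9 CPM in DU101, 14.9 CPM in DU102 and 21.3 CPM in control, so that DU101 was 3.09-fold (2.42 to 3.98) control and 4.42-fold (3.56 to 5.52) DU102. In NK and ILC1-like cells it was at 15.2 CPM in DU101, 21.5 CPM in DU102 and 9.68 CPM in control. There DU102 was the highest library, 2.22-fold (1.72 to 2.86) control. In pDC-like cells, with 36.4 CPM in DU101, 17.0 CPM in DU102 and 29.4 CPM in control, DU102 was instead 1.73-fold lower (1.16 to 2.64) than control. In Kupffer-like cells Ifit2 was at 168 CPM in DU101, 88.6 CPM in DU102 and 48.9 CPM in control, and the DU102 value was called over control at 1.81-fold (1.34 to 2.45). That last direction turned to a log2 ratio of -0.055 when every cell was given the same weight.

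Ifit1bl1, a relative of Ifit1, was the exception in the set for DU101 over control. In macrophage-like cells it was at 4.76 CPM in DU101, 32.1 CPM in DU102 and 20.8 CPM in control, so DU101 was 4.36-fold lower (2.74 to 7.29) than control and 6.73-fold lower (4.22 to 11.3) than DU102. This was the 1 pair called lower in DU101 than in control. In DU102 and control its UMIs came mostly from 1 cluster of these cells, which held 32 DU101, 181 DU102 and 164 control macrophage-like cells and gave 4 of 21, 108 of 123 and 116 of 131 of the Ifit1bl1 UMIs in the same order. The number of such cells was lowest in DU101, and so were the Ifit1bl1 UMIs per cell within that cluster. The part of each in the result was not tested. In the cluster that held most macrophage-like cells Ifit1bl1 had too few UMIs for a ratio. In neutrophil-like cells it was at 8.55 CPM in DU101, 4.43 CPM in DU102 and 2.48 CPM in control, higher in DU101 than control by 3.45-fold (1.68 to 7.78). Ifit1bl1 shares 29.6% of its end words with Ifit1bl2, so reads of the pair cannot be fully separated.

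**Figure D3:**
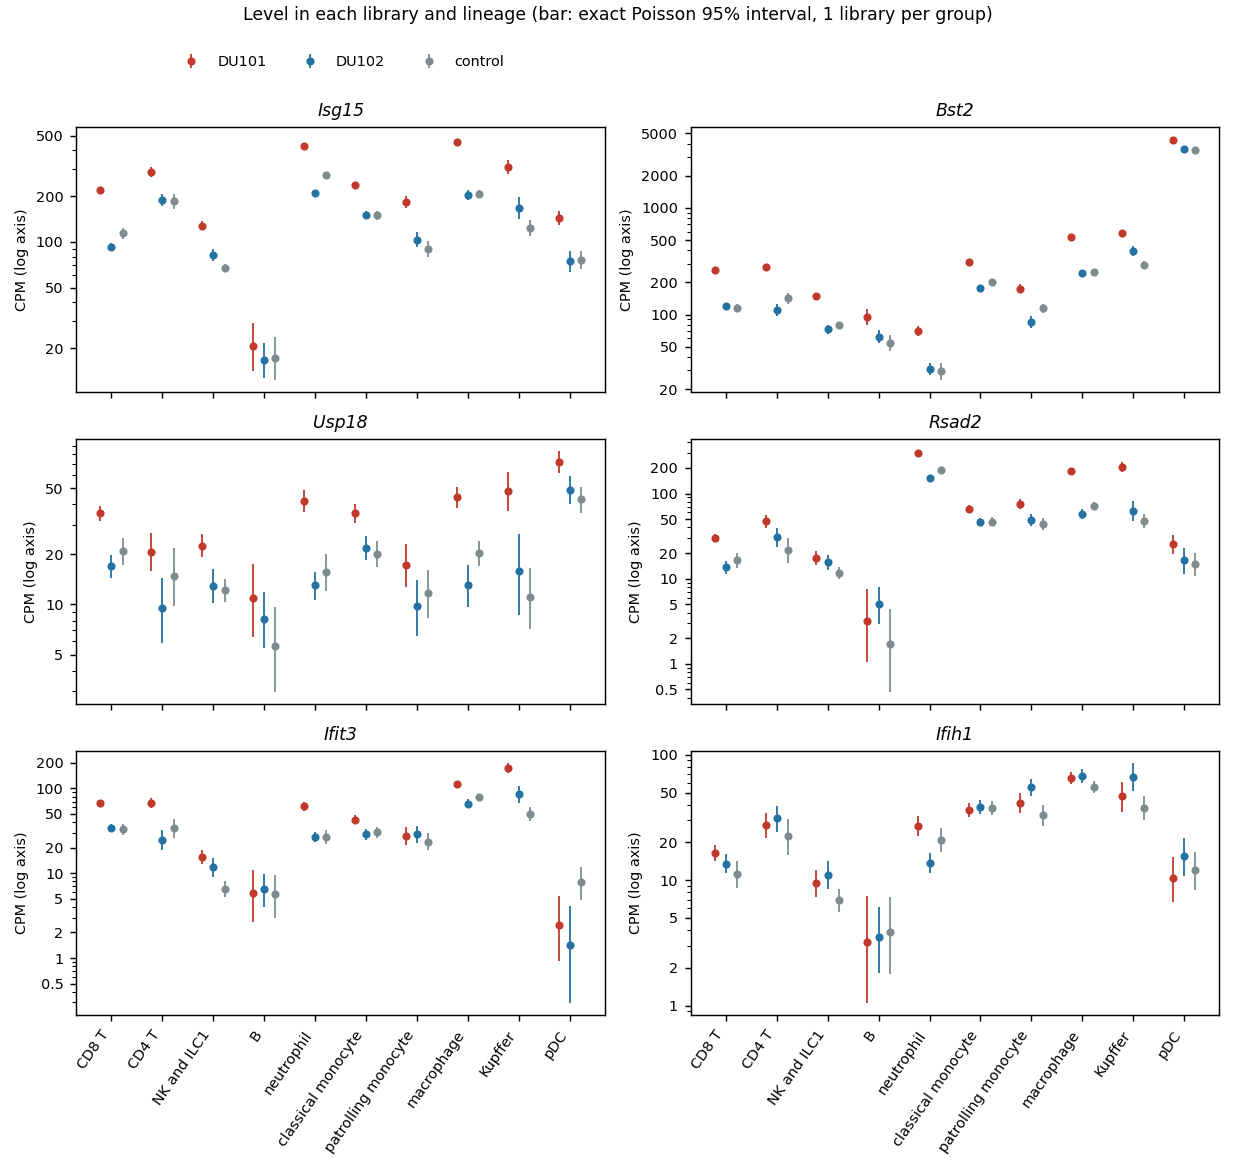
Level in CPM (logarithmic axis) of Isg15, Bst2, Usp18, Rsad2, Ifit3 or Ifih1, 1 panel each, in the DU101, DU102 and control libraries of each lineage, with exact Poisson 95% intervals. For Isg15 the DU101 point is the highest of the 3 in all 10 lineages, as in macrophage cells at 454 CPM against 203 in DU102 and 207 in control, while for Ifih1 the DU101 point is the highest in 2.

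Of the oligoadenylate synthetases, 18 of 45 pairs were higher in DU101 than control (4.71% over all genes). For DU102 over control 5 of 44 were higher and 1 lower (4.7% and 4.89%), and for DU101 over DU102 14 of 44 were higher (3.85%). Oasl1, a synthetase-like protein without the enzyme activity that is known in mouse to block translation of Irf7, was at 62.6 CPM in DU101, 37.8 CPM in DU102 and 27.6 CPM in control in macrophage-like cells. DU101 was 2.27-fold (1.87 to 2.76) control, while the ratio of DU102 over control was 1.37 (1.09 to 1.72). Oasl2 in neutrophil-like cells was at 157 CPM in DU101, 84.8 CPM in DU102 and 98.7 CPM in control, with DU101 1.59-fold (1.40 to 1.81) control and 1.85-fold (1.66 to 2.06) DU102. Oas3 stood apart from these, with 1 of 8 measured pairs called in DU101 over control and the same lineage, Kupffer-like cells, in DU102 over control. There it was at 33.7 CPM in DU101, 28.4 CPM in DU102 and 12.9 CPM in control, so that both treated libraries lay above control and their own intervals overlapped. Oas2 was called for DU101 over control in macrophage-like cells alone, at 1.54-fold (1.20 to 1.97). Oas1a and Oas1g share 70.0% of the end words of Oas1a, so their values, with 4 of 8 and 2 of 5 pairs called in DU101 over control, are uncertain as separate genes.

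The 4 effectors that act on nucleotides, degrade RNA or restrict viruses were higher in DU101 than control in 21 of 37 pairs and lower in 0. Over all genes the shares were 4.71% and 6.3%. For DU102 over control 4 of 37 were higher and 1 lower (4.7% and 4.89% over all genes). For DU101 over DU102 19 of 38 were higher (3.85%). Rsad2 in Kupffer-like cells was at 206 CPM in DU101, 62.5 CPM in DU102 and 48.0 CPM in control. DU101 lay far above the other 2 libraries, 4.30-fold (3.41 to 5.47) control and 3.30-fold (2.46 to 4.52) DU102, whose intervals overlapped. In neutrophil-like cells, where the control level was the highest of all lineages, Rsad2 was at 301 CPM in DU101, 151 CPM in DU102 and 191 CPM in control, a ratio of 1.58-fold (1.44 to 1.73) over control. Against the Xist-only control cells that ratio turned to a log2 value of -0.023, while the ratio over DU102, 1.99-fold (1.84 to 2.15), does not use control cells.

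Cmpk2, the kinase encoded beside Rsad2 that supplies its substrate, was at 75.6 CPM in DU101, 46.3 CPM in DU102 and 18.4 CPM in control in neutrophil-like cells. All 3 libraries were apart, with DU102 at 2.52-fold (1.96 to 3.28) control and DU101 at 1.63-fold (1.40 to 1.90) DU102. In macrophage-like cells Cmpk2 was at 25.6 CPM in DU101, 8.34 CPM in DU102 and 13.6 CPM in control, and there DU102 was 1.64-fold lower (1.08 to 2.54) than control. Isg20 in B-like cells was at 25.05 CPM in DU101, 17.3 CPM in DU102 and 8.66 CPM in control, the pair furthest above control in DU101 in that lineage by the lower end of its interval, at 2.89-fold (1.65 to 5.24), with DU102 at 2.00-fold (1.19 to 3.51). In CD4 T-like cells Isg20 was at 138 CPM in DU101, 56.4 CPM in DU102 and 79.1 CPM in control, and its ratio over control turned to a log2 value of -0.19 when each library was limited to cells with Y-linked RNA. Samd9l, a growth-restraining restriction factor for poxviruses, was at 301 CPM in DU101, 235 CPM in DU102 and 142 CPM in control in neutrophil-like cells, with both treated libraries called over control. In B-like cells, its leading lineage in control, it was at 143 CPM in DU101, 139 CPM in DU102 and 155 CPM in control, and none of the 3 ratios was called.

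Bst2, the tether, was higher by size in DU101 than control in 9 of 10 lineages, in DU102 than control in 0, and in DU101 than DU102 in 8. Over all genes, 4.71%, 4.7% and 3.85% of pairs were called higher in the same order. The counts against control pool control cells of both sex marks. Macrophage-like cells held 534 CPM in DU101, 245 CPM in DU102 and 251 CPM in control of it. The DU102 and control intervals overlapped and DU101 was 2.13-fold (2.00 to 2.27) control. In CD8 T-like cells Bst2 was at 259.8 CPM in DU101, 121 CPM in DU102 and 115 CPM in control, with DU101 at 2.26-fold (2.07 to 2.46) control. In pDC-like cells, where Bst2 was already at its highest, it was at 4351 CPM in DU101, 3605 CPM in DU102 and 3486 CPM in control, and the ratio of 1.25 (1.21 to 1.28) over control was below the 1.5-fold limit. The median log2 ratio of Bst2 over the 10 lineages was 0.93 for DU101 over control and 0.007 for DU102 over control.

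The HIN-200 genes were higher in DU101 than control in 13 of 28 pairs (4.71% over all genes). For DU102 over control 3 of 29 were higher and 1 lower (4.7% and 4.89%), and for DU101 over DU102 9 of 28 were higher (3.85%). Ifi204 was called for DU101 over control in CD8 T-like, CD4 T-like and NK and ILC1-like cells and in none of the myeloid lineages. In CD4 T-like cells it was at 34.1 CPM in DU101, 12.2 CPM in DU102 and 13.8 CPM in control, and DU101 was 2.48-fold (1.57 to 4.05) control. In macrophage-like cells, at 254 CPM in DU101, 214 CPM in DU102 and 228 CPM in control, the ratio of DU101 over control was 1.12 (1.03 to 1.21). The difference between these lineages was not tested. The summed level of 10 macrophage markers in CD4 T-like cells was 548 CPM in DU101, 317 CPM in DU102 and 467 CPM in control, none of the 10 being at 0, and its part in the Ifi204 level was not tested. In neutrophil-like cells Ifi204 was at 93.4 CPM in DU101, 46.9 CPM in DU102 and 91.3 CPM in control, where DU102 was 1.95-fold lower (1.68 to 2.25) than control, a direction that turned to a log2 ratio of 0.058 when 1 cluster was taken. The same 10 macrophage markers moved with it, at 804 CPM in DU101, 351 CPM in DU102 and 1304 CPM in control neutrophil-like cells, and their part in the neutrophil-like values was not tested. Ifi203 in macrophage-like cells was at 250.1 CPM in DU101, 134 CPM in DU102 and 145 CPM in control, with DU101 the high library. Ifi208 in NK and ILC1-like cells was at 8.19 CPM in DU101, 11.2 CPM in DU102 and 4.04 CPM in control, and here both treated libraries were called over control, at 2.03-fold (1.37 to 3.01) for DU101 and 2.79-fold (1.91 to 4.08) for DU102. Ifi214 in CD8 T-like cells was at 69.3 CPM in DU101, 46.7 CPM in DU102 and 38.7 CPM in control, called for DU101 over control at 1.79-fold (1.54 to 2.09).

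The sensors of nucleic acid, which sit upstream of interferon as well as among its targets, had fewer called pairs than the other groups of several genes when DU101 was set against DU102. For DU101 over control 9 of 48 pairs were higher (4.71% over all genes). For DU102 over control 9 of 48 were higher and 1 lower (4.7% and 4.89%), and for DU101 over DU102 4 of 48 were higher (3.85%). Ddx58, which encodes RIG-I, a sensor of viral RNA ends, was called in 0 of 9 lineages in each of the 3 comparisons, as in macrophage-like cells at 53.5 CPM in DU101, 50.6 CPM in DU102 and 43.8 CPM in control. Ifih1 was called in DU101 over control in 0 of 9 lineages and in DU102 over control as higher in 3 and lower in 1. In patrolling monocyte-like cells it was at 41.6 CPM in DU101, 55.3 CPM in DU102 and 33.2 CPM in control, with DU102 the high library at 1.66-fold (1.30 to 2.15) control. In neutrophil-like cells it was at 27.3 CPM in DU101, 13.8 CPM in DU102 and 21.1 CPM in control, with DU102 the low one, 1.53-fold lower (1.14 to 2.04) than control.

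Eif2ak2, the kinase PKR that halts translation on sensing double-stranded RNA, was at 17.2 CPM in DU101, 25.1 CPM in DU102 and 12.6 CPM in control in NK and ILC1-like cells. DU102 was the highest library there, 1.98-fold (1.58 to 2.50) control. In pDC-like cells Eif2ak2 was at 42.2 CPM in DU101, 41.0 CPM in DU102 and 24.1 CPM in control, and both treated libraries were called over control with overlapping intervals of their own. Zbp1, a sensor of Z-form nucleic acid that can start cell death, was the sensor called most often in DU101 over control, in 6 of 10 lineages. In pDC-like cells it was at 26.0 CPM in DU101, 24.0 CPM in DU102 and 11.7 CPM in control, with DU101 at 2.23-fold (1.44 to 3.51) and DU102 at 2.06-fold (1.30 to 3.29) control. Dhx58, or LGP2, a partner of the RNA sensors, was called for DU101 over control in patrolling monocyte-like cells, at 1.58-fold (1.04 to 2.42). Stat2 was called for DU101 over control in CD8 T-like cells, at 1.66-fold (1.26 to 2.21), and in pDC-like cells it was at 90.5 CPM in DU101, 117 CPM in DU102 and 102 CPM in control, where none of the 3 ratios was called. For DU101 over DU102 Stat2 was called higher in 0 of 10 lineages and lower in 1 (3.85% and 6.37% over all genes). That lineage was B-like cells, at a log2 ratio of -0.85.

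The remaining 9 genes were higher in DU101 than control in 26 of 85 pairs (4.71% over all genes) and in DU101 than DU102 in 32 of 85 (3.85%). For DU102 over control 3 of 84 were higher and 5 lower, near the 4.7% and 4.89% over all genes. Ifi27l2a in NK and ILC1-like cells was at 229 CPM in DU101, 84.0 CPM in DU102 and 68.1 CPM in control. DU101 was 3.36-fold (3.09 to 3.65) control in these cells, in which the control level was the lowest of the 10 lineages. In CD8 T-like cells Ifi27l2a was at 1662 CPM in DU101, 937 CPM in DU102 and 676 CPM in control, with DU101 at 2.46-fold (2.37 to 2.54) control. In classical monocyte-like cells, the highest in control, it was at 2549 CPM in DU101, 1924 CPM in DU102 and 2054 CPM in control, and the ratio of DU101 over control was 1.24 (1.21 to 1.27), which is below the limit. In neutrophil-like cells Ifi27l2a was at 1604 CPM in DU101, 456 CPM in DU102 and 712 CPM in control. DU101 was high there, and DU102 was 1.56-fold lower (1.49 to 1.64) than control, a direction that turned to a log2 ratio of 0.043 when 1 cluster was taken.

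Ifi44, an interferon-induced protein of the cytoplasm, was at 38.8 CPM in DU101, 15.9 CPM in DU102 and 14.6 CPM in control in macrophage-like cells, with DU101 at 2.66-fold (2.05 to 3.46) control. In pDC-like cells, its leading lineage in control among the 10, it was at 102 CPM in DU101, 50.4 CPM in DU102 and 88.1 CPM in control. There DU101 and control had overlapping intervals and DU102 was the low library, 1.75-fold lower (1.39 to 2.21) than control. Xaf1, which counters inhibitors of apoptosis, was at 62.9 CPM in DU101, 23.4 CPM in DU102 and 23.6 CPM in control in neutrophil-like cells, with DU101 at 2.67-fold (2.105 to 3.41) control. Rtp4, a receptor-transporting protein, was called for DU101 over control in CD8 T-like and in NK and ILC1-like cells, and was at 28.6 CPM in DU101, 16.3 CPM in DU102 and 12.2 CPM in control in the NK and ILC1-like cells. Parp14, an ADP-ribosyltransferase, was called for DU101 over control in 0 of 10 lineages, as in macrophage-like cells at 158 CPM in DU101, 122 CPM in DU102 and 114 CPM in control. Ifi35, an interferon-induced leucine zipper protein, was called in 1 lineage, Kupffer-like cells, at 1.59-fold (1.15 to 2.20) control. Epsti1, named after the interaction of epithelium and stroma, was called in 1, macrophage-like cells, at 1.54-fold (1.41 to 1.69) control. Ifi47, an interferon-induced GTPase, was called in 2, and was at 27.0 CPM in DU101, 11.1 CPM in DU102 and 19.1 CPM in control in neutrophil-like cells, where DU102 was 1.72-fold lower (1.26 to 2.36) than control. Phf11b, a PHD-finger protein, was called in 3, and 55.7% of its end words occur in other genes of its family.

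By lineage, the share of measured genes called higher in DU101 over control was largest in neutrophil-like cells, with 22 of 35 (against 8.3% of all genes), and in Kupffer-like cells, with 21 of 34 (5.18% of all genes). CD8 T-like cells followed with 20 of 37 (4.46% of all genes), macrophage-like cells with 20 of 37 (3.99%) and NK and ILC1-like cells with 17 of 35 (3.28%). Classical monocyte-like cells had 8 of 37 (6.31%), CD4 T-like cells 8 of 34 (5.08%), patrolling monocyte-like cells 8 of 34 (3.38%), pDC-like cells 8 of 26 (3.13%) and B-like cells 5 of 23 (4.39%). The median log2 ratio of the measured genes ran from 0.20 in B-like cells, against -0.04 over all genes there, to 0.91 in Kupffer-like cells, against -0.02. In neutrophil-like cells the median was 0.75, against -0.15 over all genes.

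Which genes stood furthest above control in DU101 differed by lineage, going by the bound of each interval that lay nearest to 1. In CD8 T-like cells they were Ifi27l2a, Bst2 and Isg15, and in NK and ILC1-like cells Ifi27l2a, Rtp4 and Ifit3. CD4 T-like cells were led by Bst2, at 278 CPM in DU101, 109.6 CPM in DU102 and 142 CPM in control, followed by Ifi204 and Rsad2. In B-like cells Isg20, Ifi27l2a and Zbp1 led. Among myeloid lineages, neutrophil-like cells were led by Cmpk2, Ifit2 and Ifit1, macrophage-like cells by Rsad2, Ifi44 and Isg15, and Kupffer-like cells by Rsad2, Ifit1 and Ifit3. Rsad2 in macrophage-like cells was at 185 CPM in DU101, 57.9 CPM in DU102 and 71.9 CPM in control, 2.58-fold (2.30 to 2.90) control. Classical monocyte-like cells were led by Ifit2, at 54.2 CPM in DU101, 28.1 CPM in DU102 and 26.9 CPM in control, and patrolling monocyte-like cells by Isg15, at 183 CPM in DU101, 103 CPM in DU102 and 89.7 CPM in control. In pDC-like cells Isg15 led too, at 143 CPM in DU101, 74.5 CPM in DU102 and 76.1 CPM in control, ahead of Ifi27l2a and Zbp1. At the low end, Ifi204 was among the lowest 2 in all 4 monocyte, macrophage and neutrophil gates, and Samd9l or Parp14 was among the lowest 2 in CD8 T-like, NK and ILC1-like, B-like, pDC-like and Kupffer-like cells.

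DU102 over control was uneven across the lineages. Kupffer-like cells had 11 of 33 genes higher (3.6% of all genes) and 0 lower (3.37%), with a median log2 ratio of 0.51, and NK and ILC1-like cells 6 of 34 (3.97% of all genes) and 0 lower (2.1%), with a median of 0.31. In Kupffer-like cells both treated libraries therefore lay above control for much of the set, as with Zbp1 at 62.2 CPM in DU101, 67.0 CPM in DU102 and 31.4 CPM in control and Ifi44 at 40.6 CPM in DU101, 36.4 CPM in DU102 and 14.3 CPM in control. In neutrophil-like cells DU102 had 4 of 35 genes higher and 6 lower, against 6.23% and 27.5% of all genes, and a median of -0.17 against -0.34 over all genes, with the macrophage markers at 351 CPM in DU102 and 1304 CPM in control. CD8 T-like cells had 0 of 36 called in either direction, against 4.93% and 1.8% of all genes. CD4 T-like cells had 1 of 34 genes called (3.96% of all genes), Ifit1bl1, at 19.4 CPM in DU101, 33.8 CPM in DU102 and 20.1 CPM in control, and classical monocyte-like cells 1 of 37 (6.38%), Ifi214, at 3.47 CPM in DU101, 3.61 CPM in DU102 and 1.28 CPM in control. B-like cells had 3 of 27 higher and 1 lower (5.36% and 3.16% of all genes), patrolling monocyte-like cells 2 of 34 and 1 (5.38% and 2.35%), macrophage-like cells 1 of 37 and 2 (3.84% and 2.6%) and pDC-like cells 2 of 25 and 2 (3.15% and 2.1%).

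DU101 over DU102 was widest in neutrophil-like cells, with 27 of 35 genes higher (9.83% of all genes) and a median log2 ratio of 0.98 against 0.17 over all genes. The macrophage markers moved the same way in that gate (804 CPM in DU101 and 351 CPM in DU102), and their part in the count was not tested. Macrophage-like cells had 21 of 37 higher (4.29% of all genes) with a median of 0.73, and CD8 T-like cells 16 of 37 (2.36%) with a median of 0.57. NK and ILC1-like cells, at 9 of 34 (2.69%) with a median of 0.26, and B-like cells, at 4 of 25 (3.34%) with a median of 0.30, were among the least apart. Patrolling monocyte-like cells had 12 of 35 higher (2.57%), CD4 T-like cells 12 of 34 (3.84%), Kupffer-like cells 10 of 33 (5.25%), classical monocyte-like cells 9 of 37 (2.47%) and pDC-like cells 7 of 26 (2.87%). The make-up of a gate also differed between libraries. In neutrophil-like cells 1 cluster held 35.1% of the DU101, 37.6% of the DU102 and 76.2% of the control cells, and within that cluster the median for DU101 over control was 1.16 and for DU102 over control 0.45. In B-like cells the cluster that held nearly all cells gave a median of -0.02 for DU101 over control. In other lineages, the cluster that held most control cells gave medians for DU101 over control of 0.49 in CD8 T-like, 0.47 in macrophage-like and 0.98 in Kupffer-like cells.

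The mixture of sexes in the control library touches these ratios, since the genes differed within that library. Control cells in which Xist but no Y-linked RNA was found (Xist-only) were set against those in which Y-linked RNA but no Xist was found (Y-only). Of 283 pairs measured, 96 (33.9%) were higher in Xist-only cells and 6 (2.12%) lower, against 7.62% and 5.64% over all genes. In classical monocyte-like cells 31 of 33 genes were higher in Xist-only cells, with a median log2 ratio of 1.34, and the summed level was 5484 CPM in 306 Xist-only cells and 2546 CPM in 194 Y-only cells. Isg15 in those cells was at 274 CPM in Xist-only and 31.1 CPM in Y-only control cells, a ratio of 8.80-fold (6.93 to 11.3). CD8 T-like cells had 16 of 32 genes higher with a median of 0.73, and macrophage-like cells 15 of 36 with a median of 0.50. In Kupffer-like cells 1 of 24 was higher and 2 lower, with a median of 0.05, and in CD4 T-like cells 1 of 26 was higher and 2 lower, with a median of 0.04. Animals of each sex may differ in more than sex, and the number of animals is not given, so sex and animal cannot be told apart here.

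Against Y-only control cells, 183 of 316 pairs (57.9%) were higher in DU101 and 1 lower, against 7.54% and 7.49% over all genes. In DU102, 88 of 306 pairs (28.8%) were higher and 5 lower, against 6.14% and 4.77%. Against Xist-only control cells, 98 of 327 pairs were higher in DU101 and 8 lower, against 4.78% and 6.59% over all genes. In DU102, 21 of 321 pairs (6.54%) were higher and 38 (11.8%) lower, against 5.86% and 5.61%. The share of higher pairs in DU101 was thus above the background against either kind of control cell, while in DU102 it was above it against Y-only cells and near it against Xist-only cells. The share of lower pairs in DU102 was above the background against Xist-only cells. By lineage, the median log2 ratio of DU101 over control in Kupffer-like cells was 0.91 with all control cells, 0.82 with Y-only and 0.75 with Xist-only cells. In CD8 T-like cells it was 0.71, 1.03 and 0.59, and in NK and ILC1-like cells 0.63, 0.96 and 0.64 in the same order. In classical monocyte-like cells it was 0.31, 1.12 and -0.21, and in B-like cells 0.20, 1.01 and -0.13, so the direction in these 2 lineages hung on the control cells used. Isg15 in classical monocyte-like cells, called at 1.58-fold (1.46 to 1.72) with all control cells, had a log2 ratio of -0.22 against Xist-only cells. When every library was limited to Y-only cells, DU101 was higher than control in 164 of 291 pairs and lower in 1, against 8.41% and 7.0% over all genes. DU102 was then higher than control in 82 of 280 and lower in 8, against 6.9% and 4.78%, and DU101 higher than DU102 in 114 of 317 and lower in 10, against 4.27% and 6.32%.

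**Figure D4:**
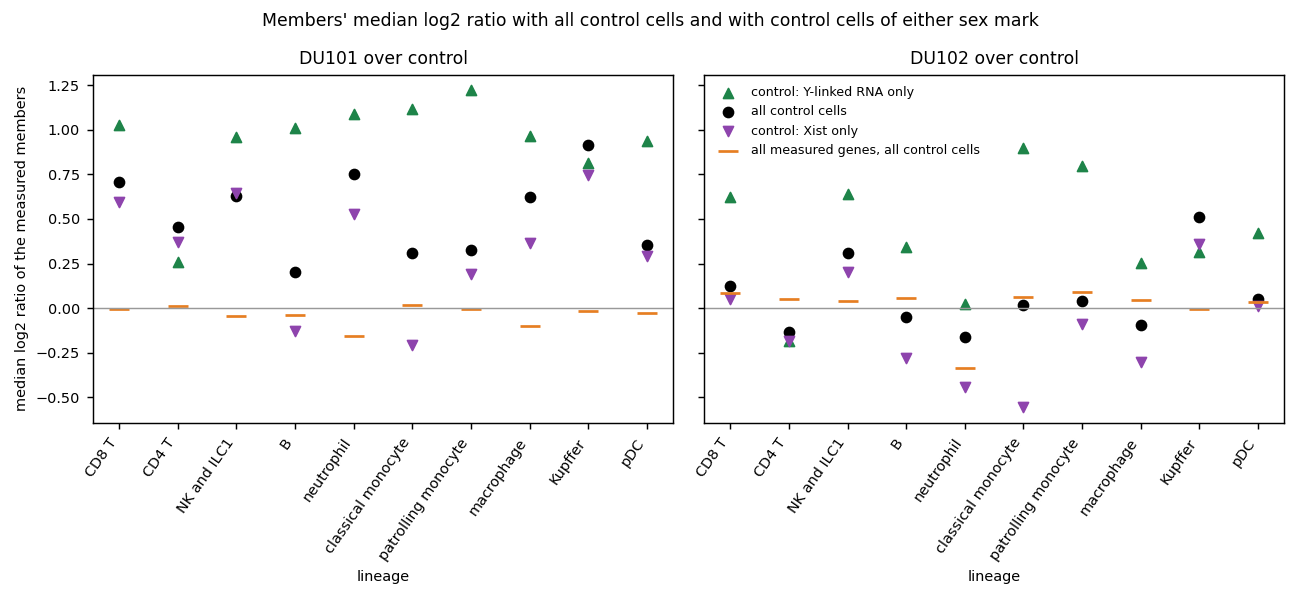
Median log2 ratio of the measured genes in each lineage for DU101 over control and DU102 over control, with all control cells, Y-only control cells or Xist-only control cells as the divisor. In classical monocyte cells the DU101 median is 0.31, 1.12 and -0.21 in that order, while in Kupffer cells it is 0.91, 0.82 and 0.75.

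The share of cells with RNA of these genes was read after thinning each cell to 2000 UMIs, which left out shallower cells. Such a share tends to rise with the mean level, so it cannot by itself tell few cells with much RNA from many with little. The share of cells with at least 5 UMIs over the 38 genes was 84.1% (81.0 to 86.9) in DU101, 55.3% (50.5 to 60.0) in DU102 and 60.0% (56.2 to 63.8) in control macrophage-like cells. Brackets here are exact binomial 95% intervals over the cells of 1 library, which cover counting error only, so they compare these libraries and not the treatments. DU101 was the highest of the 3 libraries there. In CD8 T-like cells the shares were 66.3% (64.1 to 68.4) in DU101, 46.5% (43.9 to 49.2) in DU102 and 43.3% (39.6 to 46.9) in control, and in NK and ILC1-like cells 29.5% (26.5 to 32.8), 19.3% (16.2 to 22.7) and 15.2% (13.2 to 17.5) in the same order. In classical monocyte-like cells the shares were 70.1%, 69.8% and 73.5%, and in pDC-like cells 97.2%, 96.0% and 92.8%. The share did not follow the summed level in classical monocyte-like cells. That level was 5003 CPM in DU101, 3927 CPM in DU102 and 4039 CPM in control over all cells of the gate. Without thinning, the macrophage-like shares were 79.0%, 73.1% and 78.6%, over all cells, shallow ones included. In neutrophil-like cells 657 of 1174 DU101, 1200 of 1736 DU102 and 880 of 1159 control cells were deep enough, and the shares were 57.5% (53.7 to 61.3), 29.8% (27.3 to 32.5) and 33.8% (30.6 to 37.0). No lineage is known to lack these genes, so the part of free RNA in the shares was not tested.

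Of single genes, Isg15 and Bst2 are given for macrophage-like cells, where DU101 was the high library for both. Isg15 was found in 39.0% (35.2 to 43.0) of thinned macrophage-like cells in DU101, 25.8% (21.8 to 30.2) in DU102 and 22.8% (19.6 to 26.1) in control. Bst2 was found in 57.1% (53.2 to 61.1), 34.2% (29.8 to 38.8) and 35.6% (32.0 to 39.4) of the same cells. Unthinned, the shares were 46.9%, 41.4% and 40.4% for Isg15 and 71.1%, 56.6% and 62.3% for Bst2.

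**Figure D5:**
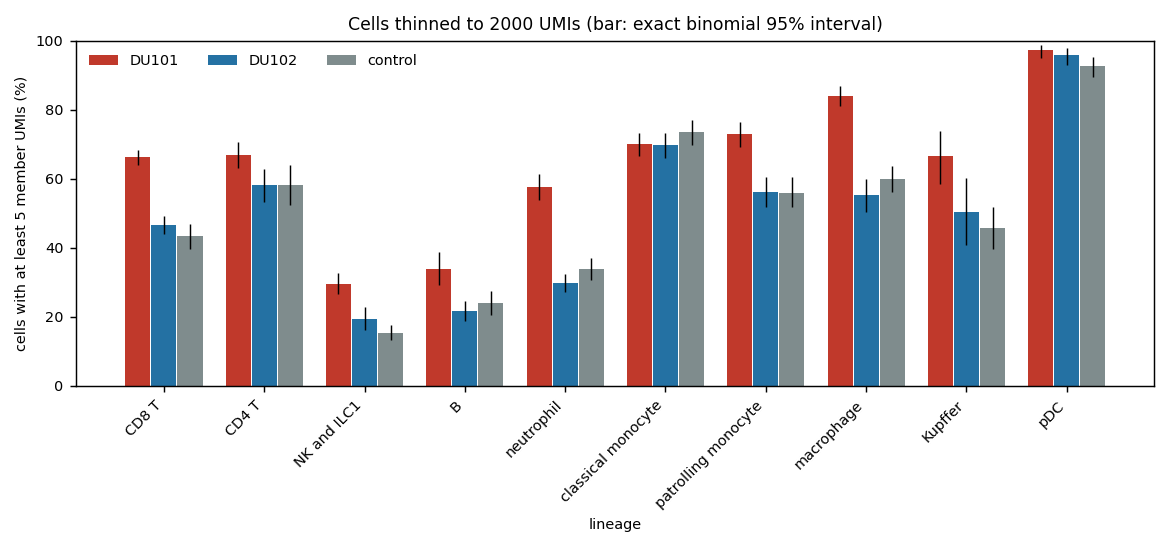
Share of cells, in percent, with at least 5 UMIs over the 38 genes after thinning to 2000 UMIs per cell, in the DU101, DU102 and control libraries of each lineage, with exact binomial (Clopper-Pearson) 95% intervals. DU101 stands above the other libraries in macrophage cells at 84.1% against 55.3% in DU102 and 60.0% in control, and the 3 libraries lie together in classical monocyte cells at 70.1%, 69.8% and 73.5%.

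Other genes of the pathway were read beside the set. Of 20 type I and type III interferon ligands, none reached 30 UMIs in any lineage. Ifnb1, interferon-beta, had 48 UMIs in DU101, 17 in DU102 and 10 in control over all gated cells, and 22 of the DU101 and 5 of the control UMIs were in macrophage-like cells, with 0 in DU102. Of 18 receptor and signalling genes, 17 of 169 pairs (10.1%) were higher in DU101 than control and 7 lower, against 4.71% and 6.3% over all genes, and 6 of 171 (3.51%) were higher in DU102 and 8 lower, against 4.7% and 4.89%. Irf7, the factor that amplifies interferon production, held 6 of the 17, as in macrophage-like cells at 309 CPM in DU101, 169 CPM in DU102 and 139 CPM in control, where DU101 was 2.22-fold (2.04 to 2.42) control. Irf9 was called higher in DU101 than control in 1 lineage, Ifnar2 in 1 and Ifnar1 in 0.

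Of 41 further interferon-stimulated genes, 77 of 385 pairs were higher in DU101 than control and 7 lower, against 4.71% and 6.3% over all genes. In DU102, 25 of 388 (6.44%) were higher and 17 lower, against 4.7% and 4.89%, so the share of higher pairs was near the background. Ly6a, the surface protein Sca-1, was called in 9 of 10 lineages for DU101 over control, Ifitm3, which blocks viral fusion, in 8 and Ifi213, a HIN-200 gene, in 7. Of 19 genes tied to interferon-gamma, 33 of 128 pairs (25.8%) were higher in DU101 than control and 10 lower, and 14 of 127 were higher in DU102 and 18 lower, beside the same shares over all genes. Cxcl9, a chemokine that draws T cells, was at 316 CPM in DU101, 70.6 CPM in DU102 and 61.9 CPM in control in macrophage-like cells, with DU101 at 5.10-fold (4.56 to 5.72) control. Ifng itself was at 348 CPM in DU101, 129 CPM in DU102 and 217 CPM in control in NK and ILC1-like cells, where DU102 was below control by size. Genes of upstream nucleic acid sensing were near the background, with 3 of 120 pairs (2.5%) higher and 6 lower in DU101 and 6 of 122 (4.92%) higher and 9 lower in DU102. Carried-over hepatocyte RNA was followed with 12 genes. Of their pairs, 1 of 68 (1.47%) was higher and 10 lower in DU101 than control, against 4.71% and 6.3% over all genes. In DU102, 22 of 79 (27.8%) were higher and 5 lower, against 4.7% and 4.89%. Alb was higher in 9 of 9 measured lineages in DU102. The share of higher pairs in DU102 was thus above the background. The part of carried-over RNA in the levels of the interferon-induced genes was not tested.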

How the data were processed

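RNA of single cells was captured with a 10x 3' v3 kit in 1 library per group. The deposited values are raw counts of UMIs per gene and cell barcode, which the authors made with Cell Ranger. The version is 6.0.0 per the file headers. The submitters' processing notes name version 2.1.1 and the build mm10, and no source used here gives the annotation release. Per-library tables of cluster fold changes were not used here, and 0 value columns without a sample were left out. Libraries held 106604935 UMIs in DU101, 96817875 in DU102 and 91013198 in control.

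Cells with fewer than 200 genes or over 10% mitochondrial UMIs (9.09% of DU101, 14.0% of DU102 and 17.4% of control barcodes for the mitochondrial limit) were removed. Doublets called by Scrublet in scanpy 1.11.5 (3.14%, 2.06% and 2.53% in the same order) were removed too. Each cell got the lineage whose markers had the highest mean scaled log count, at a score of at least 0.25, a lead of 0.08 and 3 markers or more. Kupffer-like cells passed the macrophage gate with at least 2 Kupffer markers. Cells with no lineage were left out. Counts were then summed per library and lineage. A ratio against a library with 0 UMIs was taken against a floor of 3 counts. The script was tested on simulated data with known changes. Leiden clusters (resolution 2.0) served only the alternatives and the make-up of the gates. A gene of the receptor and signalling list is counted in that list's totals but is not reported here by itself. Tools were scipy 1.17.1 and numpy 2.4.6 in Python 3.11.15, with scikit-learn 1.9.0, pandas 2.3.3, leidenalg 0.10.2 and matplotlib 3.10.9.

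The members and all gene lists were chosen with earlier results of these data known. A member is named in its leading control lineage and, per lineage and comparison, among the 3 highest and 2 lowest by that bound of the ratio's interval which lies nearest to 1. In other lists the 3 highest in control and the 3 called most often could be named, and all other named genes were chosen after their values were seen. The alternatives were other limits on mitochondrial UMIs, genes and UMIs, doublets kept, a stricter gate, lineages from clusters, cells weighted alike, other scalings and a 2-fold limit. Control cells with Y-linked RNA only were a further alternative, and 4 more were chosen after seeing the data. These were no dividing cells, Y-linked cells in every library, Xist-only control cells and 1 cluster per lineage.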

Additional observations from a re-analysis of the deposited data

Results flagged for a closer look

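Some genes were called in opposite directions in different lineages of the same comparison. None of these differences between lineages was tested, and each value is a log2 ratio from 1 library per group. For DU101 over control, Ifit1bl1 was at 1.79 in neutrophil-like cells, and also higher in classical monocyte-like cells, but at -2.13 in macrophage-like cells. For DU101 over DU102, the same gene was higher in neutrophil-like and classical monocyte-like cells, up to 0.948. It was lower in CD4 T-like, patrolling monocyte-like and macrophage-like cells, down to -2.75.

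For DU102 over control, Kupffer-like cells were on the higher side for 4 genes. Ifi44 was at 1.35 there and at -0.805 in pDC-like cells. Ifit3b was at 1.02 there and at -0.993 in patrolling monocyte-like cells. Ifit2 was higher in NK and ILC1-like and Kupffer-like cells, up to 1.15, and at -0.792 in pDC-like cells. Ifih1 was higher in NK and ILC1-like, patrolling monocyte-like and Kupffer-like cells, up to 0.826, and at -0.613 in neutrophil-like cells. Neutrophil-like cells were also the lower side for Ifi204, at -0.961 against 0.969 in NK and ILC1-like cells, and for Ifi47, at -0.785 against 0.609 in B-like cells. The Ifi204 value in neutrophil-like cells turned to 0.058 within 1 cluster, and 10 macrophage markers summed to 351 CPM in DU102 and 1304 CPM in control neutrophil-like cells, a part that was not tested. For Cmpk2 they were the higher side, at 1.33, against -0.71 in macrophage-like cells.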

How the results depend on the processing

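No paired analysis was possible because each group has 1 library. Over 244 ratios of single genes called or named, 3224 values were taken under the alternatives. Of these, 166 had the other sign than the value reported, and 6 of the 166 were of ratios that had been called by size. Of 460 values for the medians of lineages, 33 had the other sign, 6 of them for DU101 over control, 27 for DU102 over control and 0 for DU101 over DU102. Against Xist-only control cells, the log2 ratio of DU101 over control was -0.023 for Rsad2 in neutrophil-like cells and -0.22 for Isg15 in classical monocyte-like cells. With Y-only cells in every library, it was -0.19 for Isg20 in CD4 T-like cells. With 1 cluster per lineage, the DU102 over control value in neutrophil-like cells was 0.058 for Ifi204 and 0.043 for Ifi27l2a. With cells weighted alike, Ifit2 in Kupffer-like cells was -0.055 for DU102 over control. Shares in brackets are those of all genes under the same setting. At a 2-fold limit, 64 of 332 pairs were higher in DU101 than control (2.04%), against 137 at 1.5-fold. In DU102, 9 of 332 were then higher (1.88%) and 2 lower (2.04%) than control, and 55 of 333 were higher (1.63%) and 2 lower (2.23%) in DU101 than DU102. Pairs lower in DU101 than control, 1 in the report, numbered 5 of 329 (6.25%) with at most 5% mitochondrial UMIs, 2 of 339 (6.34%) with doublets kept, 4 of 335 (6.24%) with lineages from clusters and 4 of 332 (9.96%) with cells weighted alike. They numbered 3 of 363 (5.97%) at 10 UMIs or more, 8 of 327 (6.59%) against Xist-only control cells and 0 of 315 (4.77%) with 1 cluster. Pairs higher in DU102 than control, 31 in the report, numbered 88 of 306 (6.14%) against Y-only control cells and 82 of 280 (6.9%) with Y-only cells in every library. Pairs lower, 12 in the report, numbered 24 of 332 (7.16%) with cells weighted alike, 5 of 306 (4.77%) against Y-only control cells and 38 of 321 (5.61%) against Xist-only ones. Pairs lower in DU101 than DU102, 4 in the report, numbered 10 of 317 (6.32%) with Y-only cells in every library and 2 of 312 (6.19%) with 1 cluster. The causes were not tested. Size factors from the median of ratios shifted the median of all genes by up to 0.15 log2 for DU101 over control and 0.35 for DU102 over control. Higher pairs then were 151 of 332 (5.34%) and 30 of 332 (4.53%). Genes with few UMIs, such as the interferon ligands, cannot be compared at this depth.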
